A study of Mus musculus with 10 samples.

Results

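The genes of the cytosolic ribosome's proteins were compared between the prefrontal cortex of Arid1b heterozygotes and that of wild-type mice of the same strain. Members were the protein-coding genes whose symbol is Rpl or Rps followed by a digit, together with Rplp0, Rplp1, Rplp2 and Rpsa. The S6 kinases, whose symbols begin with Rps6k, and symbols with -ps were left out, 9 and 3 protein-coding rows. This rule took 84 of the 18216 genes of the table. They comprised 46 core proteins of the large subunit, 31 core proteins of the small subunit, 6 paralogues or like genes (Rpl3l, Rpl7l1, Rpl22l1, Rpl36al, Rps27l and Rps27rt) and Rps19bp1, which is named after Rps19 but is not a ribosome subunit. Rpl10l and Rpl39l were not analysed here. All 77 core genes passed the filter on low values, and none of them had a value of 0 in any mouse.

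All 10 mice were males of the C57BL/6N strain at postnatal day 10, with 1 poly-A RNA-seq library each. The heterozygotes (HT, n = 5) carried an Arid1b allele made by CRISPR/Cas9 that lacks exon 5 and has a TT insertion in its place, and the wild types (WT, n = 5) carried none. The mutation was germline and therefore present in every cell type, and all mice of the line came from heterozygous fathers and wild-type mothers. ARID1B is a DNA-binding subunit of the BAF chromatin-remodelling complex and is implicated in autism spectrum disorder.

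A ribosome is built from ribosomal RNA and a fixed set of proteins, each needed in about the same number of copies, so that the genes of this family are usually expressed at high and matched levels in every cell. The small subunit decodes the mRNA, and the large subunit joins the amino acids and releases the chain through a tunnel. Most ribosomal protein mRNAs begin with a C and a run of pyrimidines, called the 5′ terminal oligopyrimidine (TOP) motif, through which mTORC1 and LARP1 control their translation. In the developing cortex, translation supplies the proteins for the growth of neurites, synapses and glia.

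The sequences around the annotated start sites show what the members share. Of the 77 core genes, 57 had an entry in RefSeq (GRCm38.p6), and the transcribed strand was searched from 25 bases before to 50 bases after the start for a C followed by at least 6 further C or T. This run was found for 45 of 57 members (78.9%) and for 34.9% of the 27025 genes of the RefSeq table. Runs that lie wholly before the annotated start were counted too, so the search does not show a TOP motif at the 5′ end of the mRNA. The run was found for 29 of 34 large-subunit and 16 of 23 small-subunit genes. The hexamer CGGAAG, the core of sites bound by ETS-family factors, was searched on either strand from 250 bases before to 50 after the start. It was present for 40 of 57 members (70.2%) and for 18.8% of all genes. Among related lists described below it was present for 15 of 25 ribosome assembly genes with an entry (60.0%), 5 of 10 genes for RNA polymerase I and its factors, 6 of 12 mTORC1 and TOP-control genes and 11 of 22 initiation and elongation factors. It was present for fewer of the genes known for TOP mRNAs, 4 of 12, and for 0 of 2 ribosome proteins outside the naming rule. Read on the other strand this hexamer is CTTCCG, which can overlap the end of a pyrimidine run.

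The 6 sequences with a run and the 2 without one are shown because they belong to genes described below, some with a higher mean in HT and some with a mean near or below that of WT. Each holds 25 bases before and 25 bases after the RefSeq start, with the longest run in capitals. The runs of Rpl13, Rps25 and Rps15a lie wholly before that start. Rpl28 (chr7:4792940-4792989, + strand), Rpl13 (chr8:123102325-123102374, + strand) and Rps25 (chr9:44407689-44407738, + strand) had higher mean levels in HT mice with an unadjusted p under 0.05.
Rpl28: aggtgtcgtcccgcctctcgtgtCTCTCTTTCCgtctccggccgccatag
Rpl13: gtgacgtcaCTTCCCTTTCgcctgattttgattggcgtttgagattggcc
Rps25: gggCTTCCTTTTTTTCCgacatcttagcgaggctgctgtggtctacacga
Rps6 (chr4:86857343-86857392, - strand), Rpl27a (chr7:109519170-109519219, + strand) and Rps15a (chr7:118116123-118116172, - strand) carried runs of the same kind, with HT means that differed from the WT means by 0.198%, -1.07% and -4.84%.
Rps6: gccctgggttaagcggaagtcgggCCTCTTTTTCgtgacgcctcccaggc
Rpl27a: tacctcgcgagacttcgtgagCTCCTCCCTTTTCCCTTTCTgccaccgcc
Rps15a: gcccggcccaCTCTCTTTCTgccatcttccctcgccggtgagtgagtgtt
Rps16 (chr7:28350664-28350713, + strand) and Rps4x (chrX:102189367-102189416, - strand) had no such run in the window searched.
Rps16: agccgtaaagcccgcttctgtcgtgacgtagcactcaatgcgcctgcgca
Rps4x: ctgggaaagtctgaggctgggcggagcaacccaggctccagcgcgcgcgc
Genes with and without the run were then set side by side, with no test of the difference. The median log2 fold change of HT over WT was 0.070 for the 45 genes with the run, 37 of which had a higher mean in HT, and 0.093 for the 12 genes without it, of which 12 did.

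Arid1b itself was measured first as a check of the genotype labels. Its normalised counts, the authors' gene-level read estimates divided by size factors, were 1938, 1767, 1987, 1849 and 1929 in HT1 to HT5 and 3018, 2807, 2775, 2949 and 2662 in WT1 to WT5. The groups did not overlap, and the mean over HT mice reached 66.6% of that over WT mice. On the log2(value + 1) scale the difference was -0.59 (SE 0.048), with an adjusted p of 0.0001 in limma fitted to all 16781 genes tested.

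The total normalised count per mouse lay between 31106300 and 32106800, and the raw depth of the libraries is unknown. The 77 core genes took between 0.795% (WT3) and 0.990% (HT2) of it. HT2 stood apart from the other mice before any comparison of the members. Genes of the mitochondrial genome made up 8.43% of its normalised counts against 5.15% to 6.76% in the other 9 mice, and it held the highest value of 17.1% and the lowest value of 21.8% of all genes tested. Values without it are given beside many of the results that it moves, but not beside all of them.

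No core ribosomal protein gene passed the test between HT and WT mice, while the mean level of most was slightly higher in HT. In the large subunit 40 of 46 genes had a log2 fold change above 0 (48.8% of all genes tested did), with a median of 0.073, equal to a level higher by 5.17%. In the small subunit 29 of 31 genes had one, with a median of 0.087, or 6.21%. The median over all genes tested was -0.0035. The fold changes ran from -0.077 to 0.22 in the large and from -0.18 to 0.20 in the small subunit. At an adjusted p under 0.05 limma called 0 of 46 and 0 of 31 genes (0.0179% of all genes tested), and the smallest adjusted p among the core genes was 0.47. At an unadjusted p under 0.05, 7 large-subunit and 4 small-subunit genes were higher in HT (4.71% of all genes tested) and 0 were lower (4.52%). The HT and WT values overlapped for every core gene, whereas they did not for 0.703% (HT above) and 0.918% (HT below) of all genes tested.

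**Figure D1:**
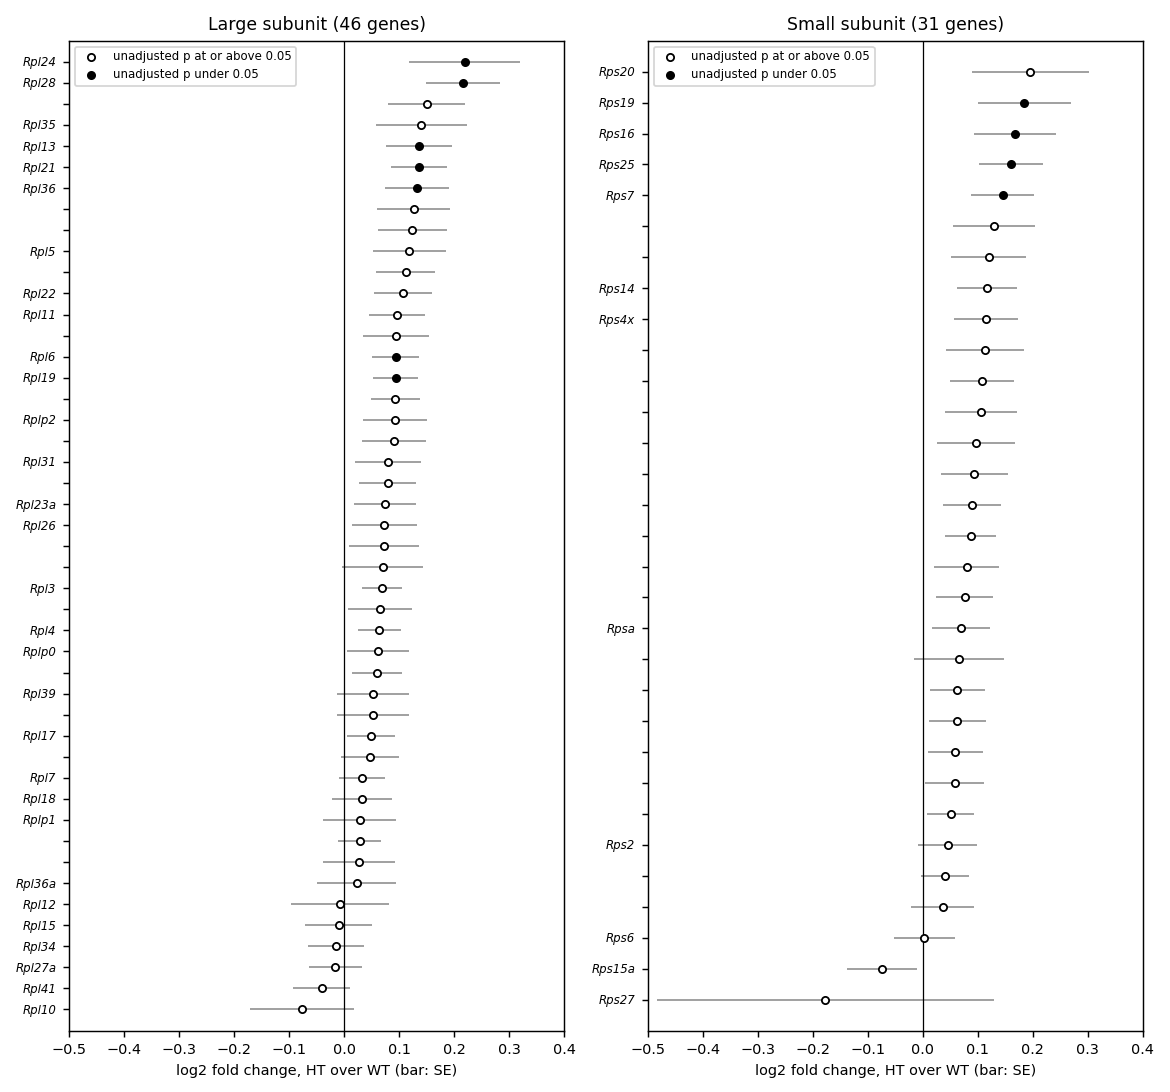
The log2 fold change of HT over WT is plotted for each core gene of the large (left) and the small subunit (right), with a bar for its standard error from limma. Filled points have an unadjusted p under 0.05, and genes described in the text are labelled. Most points lie to the right of 0, 40 of 46 and 29 of 31, and the widest bar belongs to Rps27 at the bottom of the small subunit.

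These counts depended on single mice. Without HT2 the median fell to 0.045 in the large and 0.053 in the small subunit, with 38 of 46 and 28 of 31 genes still above 0, and the genes with an unadjusted p under 0.05 fell from 7 to 2 and from 4 to 1. Without WT3 they also fell to 2 and 1, with medians of 0.056 and 0.062. Without WT5 the small-subunit median was 0.061. Leaving out HT5 gave 2 and 2, leaving out WT2 gave 7 and 2, and leaving out HT3 gave 11 and 7. In the small subunit the count was 7 without HT1 and 8 without WT1. None of these fits brought a core gene past the adjusted threshold.

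The pattern over mice was followed with the mean deviation of a subunit's genes from their own means over the 10 mice, on the log2 scale. In the large subunit it was -0.013, 0.15, -0.033, 0.012 and 0.068 in HT1 to HT5 and 0.014, -0.023, -0.11, -0.0060 and -0.055 in WT1 to WT5. The small subunit gave -0.040, 0.18, -0.033, 0.013 and 0.082 in the HT mice and 0.017, -0.041, -0.10, -0.026 and -0.046 in the WT mice. HT2 and HT5 were above every WT mouse in both subunits, WT3 was below every other mouse, and HT1, HT3 and HT4 lay within the range of the WT mice. The HT mean was 0.036 ± 0.072 (SD, n = 5) and the WT mean -0.036 ± 0.049 in the large subunit, and 0.040 ± 0.091 and -0.040 ± 0.043 in the small. Without HT2 the HT mean was 0.0087 and 0.0055.

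Gene by gene, HT2 had the highest value of all mice for 33 of 46 large-subunit genes (71.7%) and 26 of 31 small-subunit genes (83.9%), against 17.1% of all genes tested. WT3 had the lowest value for 23 of 46 and 20 of 31 genes, against 11.7% of all genes. WT5 was lowest for a further 10 large-subunit and 6 small-subunit genes. In HT2, 76 of the 77 core genes were above their own mean over the mice, and in WT3 only 8 were. In HT1 and HT3 27 and 26 were, within the WT range of 8 to 49.

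**Figure D2:**
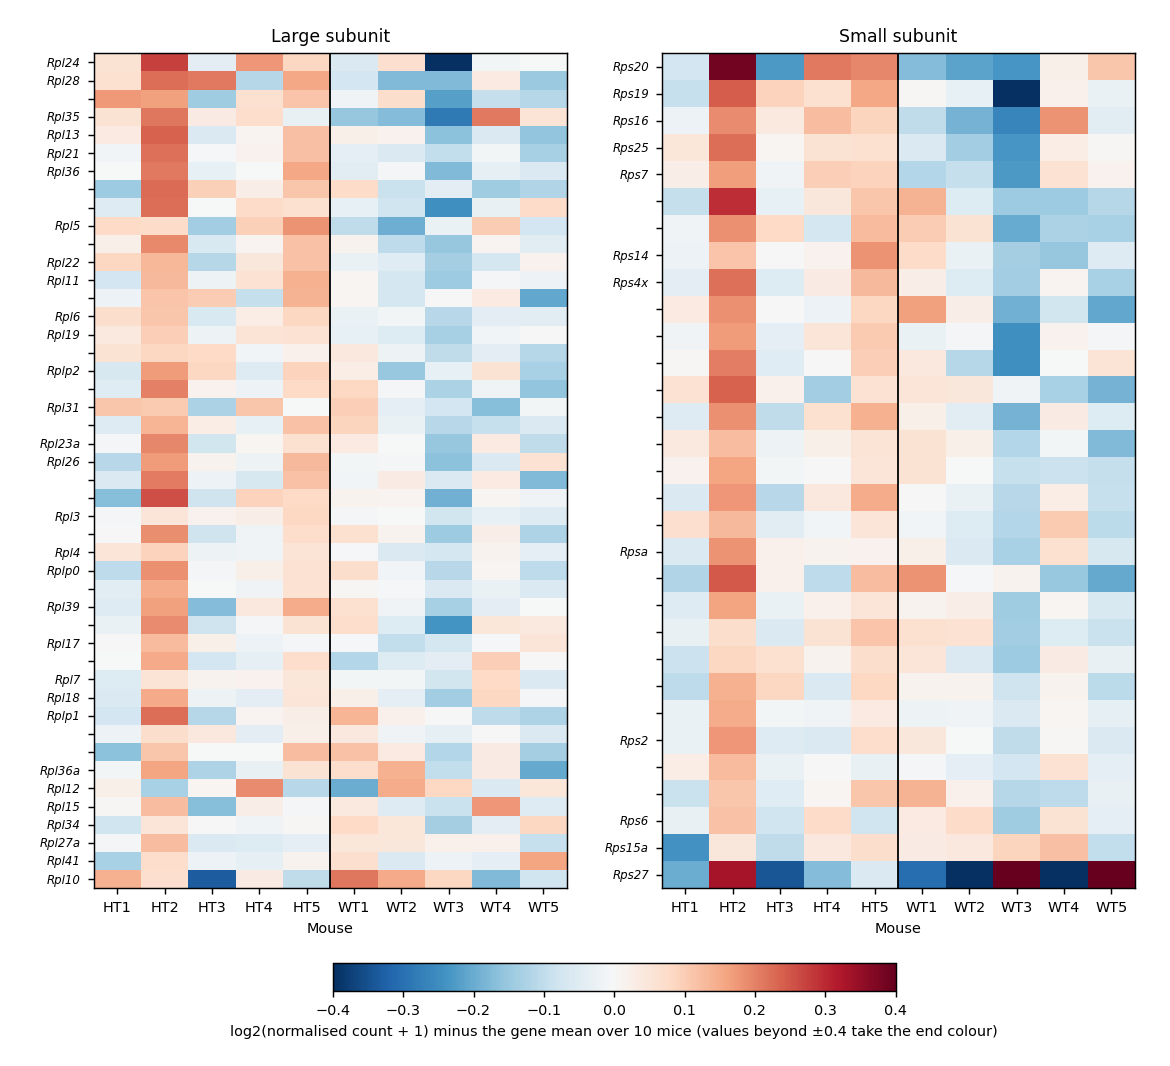
Each row is a core gene, ordered by its log2 fold change, and each column a mouse, with HT left and WT right of the line and the genes described in the text labelled. Colour shows log2(normalised count + 1) minus the gene's mean over the 10 mice. The HT2 column is red in nearly every row, HT5 mostly pale red and WT3 mostly blue, while Rps27 and Rpl10 in the bottom rows follow other mice.

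The subunits moved together. The summed level of the large-subunit genes was 167917 ± 8527 in HT and 159795 ± 5335 in WT mice, and that of the small-subunit genes 116172 ± 6921 and 110028 ± 4721. Without HT2 the HT means of these sums were 164613 and 113490. The ratio of the sums was 1.45 ± 0.015 in HT and 1.45 ± 0.015 in WT mice, with single mice between 1.43 (HT2) and 1.47 (WT3).

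**Figure D3:**
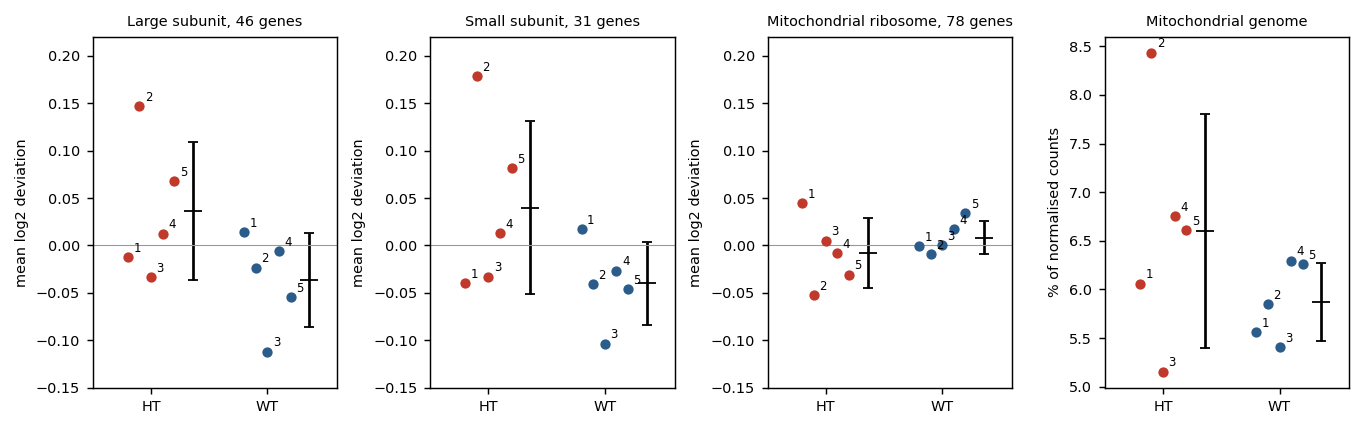
The first 3 panels plot the mean log2 deviation of the genes of the large subunit, the small subunit and the mitochondrial ribosome in each mouse, numbered by replicate, and the last panel the share of normalised counts from the mitochondrial genome. The line with caps is the group mean ± SD (n = 5). HT2 is highest in the subunit panels and in mitochondrial genome share, at 8.43%, and lowest in the mitochondrial ribosome panel.

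Within the large subunit the 7 genes with an unadjusted p under 0.05 were Rpl28, Rpl21, Rpl19, Rpl13, Rpl36, Rpl6 and Rpl24. Rpl28 (ENSMUSG00000030432, chromosome 7, 4792874 to 4795066 on GRCm38), a large-subunit protein without a counterpart in budding yeast, had the largest moderated t of the family. It was measured at 1988, 2224, 2203, 1760 and 2120 in HT1 to HT5 and at 1807, 1683, 1685, 1950 and 1717 in WT1 to WT5. Every HT mouse except HT4 was above every WT mouse. The means were 2059 ± 191 and 1769 ± 113 (SD, n = 5), 16.4% higher in HT, which on the log2 scale was 0.22 (SE 0.067) with an adjusted p of 0.47 in limma. Unlike most of the family it was high in HT3 as well as in HT2 and HT5, and without HT2 its log2 fold change was 0.19.

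Rpl21 (ENSMUSG00000041453, chromosome 5, 146832890 to 146837032) was measured at 5472, 6437, 5507, 5595 and 6001 in the HT mice and at 5372, 5307, 5165, 5487 and 5037 in the WT mice. It was higher by 10.0% in HT. HT1 fell within the WT range, and HT3 exceeded its upper end by less than the spread between the WT mice. On the log2 scale this was 0.14 (SE 0.051) with an adjusted p of 0.49 in limma, and 0.097 without HT2.

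Rpl24 (ENSMUSG00000098274, chromosome 16, 55966275 to 55971435), whose protein forms a bridge between the subunits and is affected in the Belly spot and tail mouse, had the largest log2 fold change of the subunit, 0.22 (SE 0.10, adjusted p = 0.54 in limma). It is named here after its values were seen, since its t was only the seventh. Its values were 2801, 3254, 2613, 3041 and 2861 in HT and 2588, 2819, 1844, 2676 and 2692 in WT mice. The low level of WT3 stood far below the other WT mice, which overlapped HT1 and HT3, and without WT3 the log2 fold change was 0.11.

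Rpl13, mutated in a human skeletal dysplasia, was higher by 10.0% (log2 fold change 0.14, SE 0.060), and Rpl36 by 9.74% (0.13, SE 0.058). Without HT2 these fold changes were 0.095 and 0.095. Rpl19, which lies near the tunnel exit, ranged from 5512 to 5992 in HT and from 5096 to 5597 in WT mice, higher by 6.67%. Rpl6 ranged from 5360 to 6048 and from 5188 to 5554, higher by 6.77%. In each of these 4 genes HT2 was the highest and WT3 the lowest mouse, and every adjusted p was at or above 0.515.

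**Figure D4:**
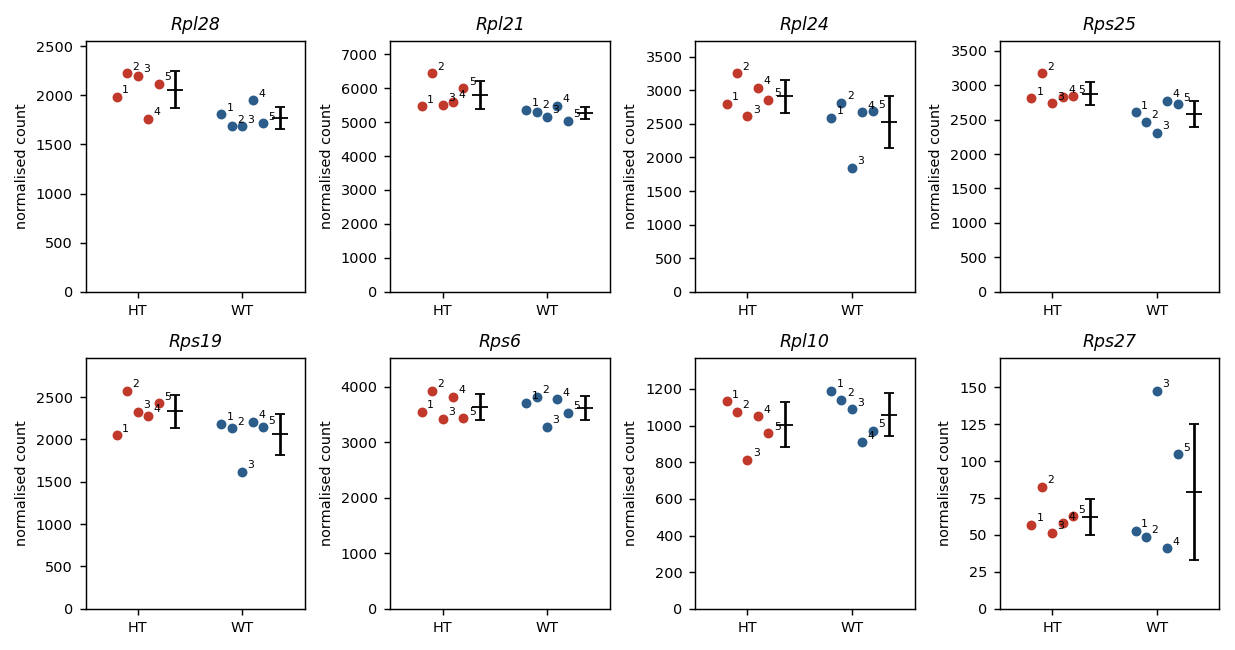
Normalised counts are plotted per mouse, numbered by replicate, for 8 genes, with the group mean ± SD (n = 5) beside the points and axes from 0. Rpl28, Rpl21, Rpl24, Rps25 and Rps19 have higher HT means with overlapping mice, the means of Rps6 are nearly equal, that of Rpl10 is lower in HT, and Rps27 is low, with WT3 (148) and WT5 (105) apart from the rest.

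By place in the large subunit, the genes of the nascent chain exit (Rpl4, Rpl17, Rpl19, Rpl23a, Rpl26, Rpl31, Rpl35 and Rpl39) were higher in 8 of 8 cases, with a median log2 fold change of 0.074 and a range of 0.049 to 0.14, and without HT2 in 8 of 8 with a median of 0.045. The 32 large-subunit genes without a listed place were close to this, with 27 above 0 and a median of 0.071 (25 and 0.040 without HT2). The P stalk, which recruits the GTPases of the translation cycle, gave 3 of 4 (Rplp0 0.062, Rplp1 0.029, Rplp2 0.092 and Rpl12 -0.0080). Without HT2 Rplp0 was 0.024, Rplp1 -0.024, Rplp2 0.061 and Rpl12 0.024, and the median of the 4 genes fell from 0.045 to 0.024. Rpl5 and Rpl11, which together with the 5S rRNA also bind MDM2, were higher by 8.57% and 6.99%, with HT5 and not HT2 the highest mouse in each. None of these genes other than Rpl19 had an unadjusted p under 0.05.

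In 6 large-subunit genes the mean was lower in HT: Rpl10, Rpl41, Rpl27a, Rpl34, Rpl15 and Rpl12, with log2 fold changes of -0.077 to -0.0080. Rpl10 (ENSMUSG00000008682, chromosome X, 74270812 to 74273135), which joins the subunit late in its assembly, was measured at 1132, 1075, 815, 1051 and 957 in HT and at 1191, 1141, 1089, 908 and 970 in WT mice. The groups overlapped widely, and the 95% interval of its log2 fold change, -0.28 to 0.13, holds the subunit's median. The value of -0.077 became -0.0036 without HT3 and -0.13 without WT4. Rpl41, which encodes a very short basic peptide, had -0.041 (95% interval -0.15 to 0.071), and -0.0068 without WT5. Rpl27a had -0.016 (-0.12 to 0.087), which was -0.049 without HT2 and -0.0028 without HT3.

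Within the small subunit the 4 genes with an unadjusted p under 0.05 were Rps25, Rps7, Rps16 and Rps19. Rps25 (ENSMUSG00000009927, chromosome 9, 44407139 to 44410427), used by some viral internal ribosome entry sites, was measured at 2810, 3173, 2737, 2831 and 2842 in HT and at 2609, 2469, 2312, 2778 and 2726 in WT mice. Only HT3 fell within the WT range. The means were 2879 ± 170 and 2579 ± 191 (SD, n = 5), 11.6% higher in HT, or 0.16 on the log2 scale (SE 0.058, adjusted p = 0.48 in limma). This was 0.12 without WT3.

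Rps19 (ENSMUSG00000040952, chromosome 7, 24884371 to 24889806), the gene most often mutated in Diamond-Blackfan anaemia, was measured at 2046, 2575, 2324, 2278 and 2426 in HT and at 2187, 2131, 1618, 2209 and 2141 in WT mice. HT1 was below 4 of the WT mice, the other HT mice were above all of them, and WT3 lay far below the rest. On the log2 scale the difference was 0.18 (SE 0.085, adjusted p = 0.54 in limma) and fell to 0.10 without WT3.

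Rps7 was higher by 10.4% (log2 fold change 0.15, SE 0.057), with HT mice at 4403 to 5007 and WT mice at 3802 to 4657. Rps16, whose tail touches the tRNA in the decoding site, was higher by 11.8% (0.17, SE 0.075). Its HT mice lay between 1527 and 1771 and its WT mice between 1292 and 1760, so that WT4 was near the top of the HT range. Rps20 had the largest log2 fold change of the subunit, 0.20, but with a SE of 0.11, and it was 0.12 without HT2 and 0.28 without HT3. Its values reached from 1974 to 3026 in the HT mice alone.

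The 14 genes of the small subunit's head were higher in 14 of 14 cases, with a median of 0.091 and a range of 0.036 to 0.20. The 17 genes of its body and platform were higher in 15 of 17, with a median of 0.076. Without HT2 these were 14 of 14 with 0.055 and 14 of 17 with 0.053. Rps14 was higher by 8.42% and the X-linked Rps4x by 8.43%, with 95% intervals of -0.0011 to 0.23 and -0.011 to 0.24, and Rps4x had a log2 fold change of 0.074 without HT2. Rps6, the protein phosphorylated by the S6 kinases, was measured at 3551, 3932, 3425, 3818 and 3430 in HT and at 3710, 3824, 3285, 3773 and 3529 in WT mice, with means of 3631 ± 232 and 3624 ± 220. HT2 was again highest and WT3 lowest, but the groups covered the same range. The log2 fold change was 0.0027, with a 95% interval of -0.12 to 0.12 that also holds the median of the subunit, and 0.057 when Rps6 was summed with its -ps rows.

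Rps15a and Rps27 had lower means in HT. Rps15a had a log2 fold change of -0.074 (95% interval -0.21 to 0.063), with HT1 at 2416 and the other mice between 2668 and 3107, and -0.023 without HT1. Rps27 was the least abundant core gene, at 57, 83, 51, 58 and 63 in the HT and 53, 49, 148, 41 and 105 in the WT mice. WT3 and WT5 were above every HT mouse, and the other WT mice lay at or below the lower HT values. The log2 fold change of -0.18 became 0.091 without WT3. Its retrogene Rps27rt, of which 92.7% of the 31-base words also occur in other genes, held most of the summed level of the pair, with 1466 ± 152 in HT and 1307 ± 121 in WT mice. The sum of both was 1529 ± 163 and 1386 ± 89, a log2 fold change of 0.14. The split of reads between these copies is uncertain, and with it the level of Rps27 alone.

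Other copies raised the same limit. Between 1.05% and 94.1% (Rpl36) of the 31-base words of a core gene's transcripts occurred in transcripts of other genes, with a median of 25.3%. The 17 genes above 40% had a median log2 fold change of 0.075 and the other 60 genes 0.078. Rpl10 had a mean of 1033 and its copy Rpl10-ps3, annotated as protein-coding, one of 3811, and their sum was 4923 ± 256 in HT and 4764 ± 243 in WT mice. Summed with their -ps rows, the large-subunit genes had a median of 0.070 and the small-subunit genes one of 0.080.

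Of the paralogues 2 of 5 tested were above 0, with a median of -0.014, and without HT2 1 of 5, with a median of -0.0064. Rpl22l1 was 634 ± 38 in HT and 641 ± 58 in WT mice, while Rpl22 was 2908 ± 195 and 2696 ± 105. The paralogue's share of the pair was 17.9% ± 1.47 in HT and 19.2% ± 0.911 in WT mice. Rpl36al, an autosomal copy of the X-linked Rpl36a, took 47.0% ± 2.28 and 47.9% ± 2.20 of its pair. Rpl7l1, an assembly factor related to Rpl7, had a log2 fold change of -0.020 (-0.041 without HT2), and Rps27l, a target of p53, one of 0.051, which was -0.0064 without HT2. Rps19bp1, a regulator of SIRT1, had -0.0057. Rpl3l, the striated muscle form of Rpl3, was too low to be tested, at 3.46 to 11.3 in all mice.

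Per kilobase of exonic length, taken from the principal transcript and from the longest where several were marked as such, the core genes spanned 205 (Rps27) to 12520 (Rplp1) normalised counts per kb, with medians of 3207 in the large and 4132 in the small subunit. Rplp1, Rps2 (12035) and Rpl41 (11371) were the highest. The lowest of the large subunit were Rpl12 (243) and Rpl18 (742), and those of the small subunit Rps27 and Rps15a (554). The annotated transcripts of Rps15a and Rpl18 were long, at 5179 and 2989 bases, which lowers this measure. Core transcripts were short, with a median of 886 bases against 2944 for all genes tested. After each sample was corrected for a trend with GC content and length, the median log2 fold changes were 0.035 and 0.040, with -0.022 for all genes. Then 35 of 46 and 27 of 31 genes were above 0, and 2 and 1 had an unadjusted p under 0.05.

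Genes around the ribosome were described from lists of its other proteins and of the pathways that make it. Among subunit proteins whose symbols do not follow the rule, Fau (log2 fold change 0.15, SE 0.060) had an unadjusted p under 0.05 in limma, and Rack1 had a log2 fold change of 0.051 (SE 0.048), and 0.014 without HT2. The list of 18 genes known for TOP mRNAs, most of them translation factors beside Tpt1, Nap1l1, Npm1 and Hnrnpa1, held the pyrimidine run in 8 of the 12 with a RefSeq entry. It had a median of 0.014, with 12 above 0 (0.016 with 15 above 0 without HT2) and 0 with an unadjusted p under 0.05 in limma. The largest moderated t of this list belonged to Eif3f (0.074, SE 0.060, and 0.044 without HT5) and Eif4b (0.041, SE 0.038, and 0.024 without WT1). The 24 other initiation and elongation factors had a median of -0.018, with 9 above 0, and Eif5, which triggers GTP hydrolysis at the start codon, had an unadjusted p under 0.05 (0.097, SE 0.042). Eif4g1 had -0.065 (SE 0.047), and -0.030 without HT2. Without HT2 the median of this list was 0.0055, with 13 of 24 above 0.

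Of 10 genes for RNA polymerase I and its factors 6 were above 0, with a median of 0.0091, among them Taf1d at 0.12 (SE 0.074, and 0.059 without WT3), while Polr1e had -0.16 (SE 0.11, and -0.079 without HT5). Of 30 assembly factors 11 were above 0, with a median of -0.044. In this list Gnl3, the nucleolar GTPase nucleostemin, was higher (0.17, SE 0.062) and Mdn1, a giant ATPase that strips factors from the maturing large subunit, lower (-0.15, SE 0.065, and -0.098 without HT1), each with an unadjusted p under 0.05. The mTORC1 and TOP-control genes had 4 of 15 above 0 and a median of -0.023, and without HT2 4 of 15 and -0.034. Larp1, which binds TOP mRNAs, was 4370 ± 178 in HT and 4630 ± 148 in WT mice, and Mycn 529 ± 56 and 583 ± 53. The log2 fold change of Larp1 was -0.084, and -0.059 without HT2. The 78 mitochondrial ribosomal protein genes had 29 above 0 and a median of -0.034, and Mrps22 (-0.20, SE 0.079) and Mrps33 (-0.12, SE 0.054) were lower with an unadjusted p under 0.05. They were the only 2 of the 78 under that threshold, and 0 were higher. Mrps22 had -0.15 without HT2. Without HT2 the medians of the assembly factors and of the mitochondrial ribosomal protein genes were -0.016 and -0.012. In these lists every adjusted p in limma was at or above 0.49. Of all genes tested, 4.71% were higher and 4.52% lower at an unadjusted p under 0.05.

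**Figure D5:**
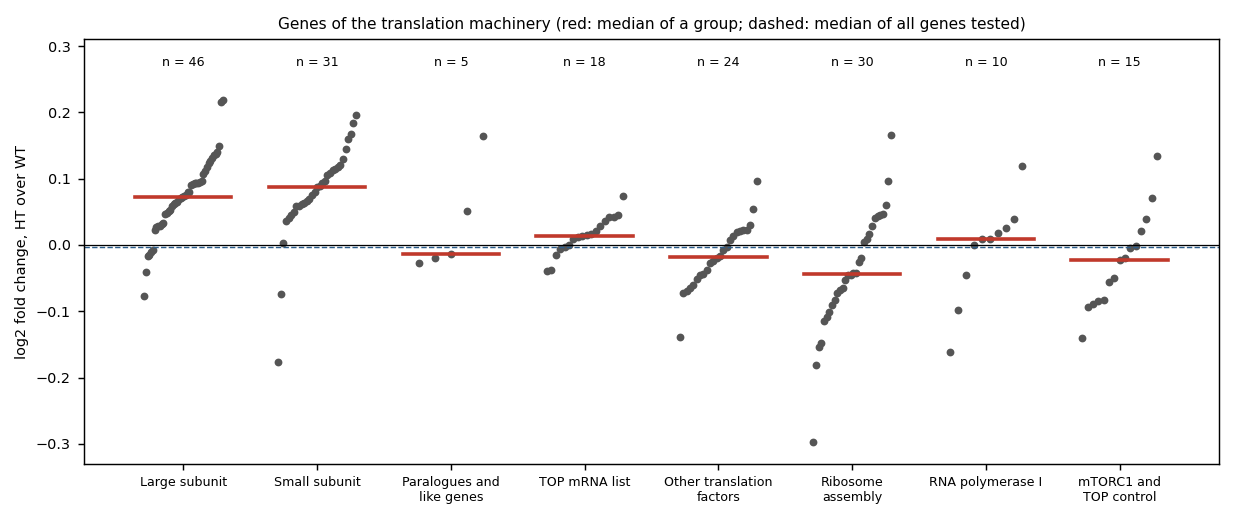
Each point is the log2 fold change of HT over WT of a gene, sorted within its list, with a red bar at the list's median and a dashed line at the median of all genes tested. The large and small subunits have medians of 0.073 and 0.087, while those of the other lists plotted lie between -0.044 and 0.014.

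Levels of cell type markers differed in the same mice. In bulk tissue a change in the number of cells of a type and a change in RNA per cell cannot be told apart. Astrocyte markers were higher in HT for 10 of 10 genes, and their summed level was 169003 to 213363 in HT and 153280 to 180417 in WT mice, highest in HT2 and next in HT5 (204907). Their median log2 fold change was 0.23 (0.18 without HT2). An unadjusted p under 0.05 in limma was reached by 7, all higher in HT, and the groups did not overlap for 2. Of all genes tested, 48.8% were above 0, 4.71% were higher at that p and 0.703% had HT above WT without overlap. Microglial markers were higher for 10 of 10, with sums of 11577 to 16195 in HT and 11331 to 13129 in WT mice, again highest in HT2 and next in HT5 (15820), and lowest in WT3. Oligodendrocyte-lineage markers were higher for 10 of 10 (65801 to 89765 against 38667 to 92337, WT3 lowest), and endothelial and mural markers for 9 of 10 (14995 to 20797 against 15304 to 17038, HT2 highest). Without HT2 the astrocyte markers were higher for 10 of 10, the microglial and the oligodendrocyte-lineage ones each for 9 of 10, and the endothelial and mural ones for 6 of 10. The medians of the microglial, oligodendrocyte-lineage and endothelial lists were 0.16, 0.24 and 0.066, and 0.092, 0.22 and 0.024 without HT2. With all mice 2, 1 and 0 of their genes had an unadjusted p under 0.05 in limma.

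Neuronal markers went the other way in the same mice. They were higher in HT for 2 of 8 genes, with sums of 172445 to 219023 in HT and 206288 to 225009 in WT mice, lowest in HT2 and highest in WT3, and the lowest HT sum without HT2 was 204424. The median log2 fold change of these markers was -0.10, and -0.016 without HT2, with 3 of 8 higher. With all mice 2 of these markers were lower with an unadjusted p under 0.05 in limma. Cortical excitatory neuron markers, which fit the dissected tissue, were present in every mouse and higher for 3 of 8, with sums of 54295 to 72498 and 60706 to 74962, and higher for 5 of 8 without HT2. Interneuron markers were higher for 5 of 6 (16762 to 18373 and 16548 to 18364). Markers of neighbouring tissue varied widely in each group. Striatal markers summed to 5031 to 15422 in HT and 3843 to 12226 in WT mice (7 of 8 higher), and those of the olfactory bulb to 582 to 3157 and 536 to 3146 (5 of 5 higher). Cycling-cell markers were higher for 6 of 6 (1125 to 1733 and 1045 to 1709), meningeal ones for 4 of 7 (6628 to 10304 and 8123 to 9538), blood ones for 0 of 5 (6417 to 9348 and 7022 to 11297) and those of the choroid plexus for 1 of the 3 tested of 5 (75.5 to 89.9 and 63.1 to 88.6). Without HT2 the interneuron markers were higher for 4 of 6, the meningeal ones for 2 of 7, with a median log2 fold change of -0.067 in place of 0.011, and those of the olfactory bulb for 3 of 5, with 0.13 in place of 0.48. Without it the striatal, cycling-cell, blood and choroid plexus counts were the same. No tested marker was at 0 in any mouse. The part of the cell type makeup, the mitochondrial share and HT2 in the levels of the ribosomal protein genes was not tested beyond the values without HT2.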

How the data were processed

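Poly-A RNA was sequenced in paired ends from stranded libraries, 1 per mouse. The authors estimated transcript abundance with Salmon 1.1.0 on GRCm38 with GC bias correction, summed it to genes with tximport and divided it by DESeq2 1.30.1 size factors. Each deposited value is thus a normalised signal (called normalised count), not a number of whole reads. Only 7.84% to 26.6% of a library's low values fell on whole multiples of a step (tolerance 0.02), so depth is unknown and no count test was run.

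Values were taken as log2(value + 1). Genes with a mean of at least 10 (16781 of 18216) were fitted in limma 3.58.1 (R 4.3.3) with a variance trend, 5 HT against 5 WT mice, 2-sided, with Benjamini-Hochberg adjustment over all of them. The script was tested on simulated data with independent genes and changes far larger than those of the core genes. This was therefore no check of small differences that genes share. Symbols, coordinates and exonic lengths (the APPRIS principal transcript, the longest where several are marked) were from GENCODE M21. Replicate numbers named different mice and were not used as pairs. The labels do not tell which mice shared a litter.

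The members, lists and naming rule were chosen with earlier results of these data known. Beyond Arid1b, genes were named as the 6 largest absolute and the 3 most negative moderated t and the 2 highest and lowest levels per kb of each subunit, paralogues with their parents, Rps6, Rpl10, Rps4x, and the 2 largest absolute t of each list, while other members were named after their values were seen. Alternatives changed the pseudocount, filter, scaling, variance model, weights, copies and samples. Single values of some genes are not reported here.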

Additional observations from a re-analysis of the deposited data

Results flagged for a closer look

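Among 90 groups of 5 mice, examined for Arid1b, the members described singly and 4 measures per mouse, 7 held a mouse whose gap to its nearest neighbour was above 0.71 of the group's whole range (Dixon's 95% value for 5 samples). Chance alone gives about 1 in 20, or 4.5 groups here. Rps19 was 1618 in WT3 against 2131 to 2209 in the other WT mice. Rpl24 was 1844 in WT3 against 2588 to 2819 in the other WT mice. Rps25 was 3173 in HT2 against 2737 to 2842 in the other HT mice. Rpl27a was 2208 in HT2 against 1943 to 2019 in the other HT mice, and 1902 in WT5 against 2057 to 2096 in the other WT mice. Rpl36al was 999.2 in HT5 against 1080 to 1112, and Rpl7l1 was 791.6 in HT5 against 1031 to 1094 in the other HT mice.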

How the results depend on the processing

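The number of core genes past an adjusted p of 0.05 was 0 in each subunit under every alternative run, also at a threshold of 0.1, and Arid1b stayed between -0.61 and -0.56. The medians of both subunits stayed above 0, from 0.035 to 0.097 in the large and from 0.040 to 0.11 in the small subunit over all alternatives. The number of genes with an unadjusted p under 0.05, 7 and 4 as reported, was the least stable value. It became 2 and 1 with the GC and length correction, 2 and 2 with that correction and the replicate number as a block, 2 and 2 without a variance trend, 3 and 3 with sample quality weights, 11 and 5 with quantile normalisation and 11 and 5 with totals equalised without the mitochondrial genome. Leaving out 1 mouse gave 2 to 11 in the large and 1 to 8 in the small subunit. With the replicate block alone it was 8 and 6, and 0 genes in each subunit passed the adjusted threshold. The deviations of same-numbered mice had correlations of -0.041 to 0.10 (mean 0.038, against -0.0091 for other pairs), and 5 of 10 samples correlated best with their own number, a hint from the data that the labels do not bear out, so the numbers were not used as pairs. Quality weights gave medians of 0.046 and 0.058. The background also moved with the setting. Of all genes tested, 42.9% were above 0 with the GC and length correction, 48.1% with quantile normalisation and 55.1% with equal totals. As reported this share was 48.8%. The matching medians over all genes were -0.022, -0.0054, 0.014 and -0.0035. The share of all genes with an unadjusted p under 0.05 in each alternative is not given here.

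Fold changes near 0 turned sign. With the GC and length correction, with or without the block, Rplp1 was -0.021, Rpl18 -0.0045, Rpl36a -0.015 and Rps6 -0.032. With sample quality weights Rplp1 was -0.020, Rpl12 0.014, Rps27l -0.014, Rpl36a -0.017 and Rps6 -0.014. With equal totals Rpl27a was 0.0013, Rpl12 0.0094, Rpl22l1 0.0035, Rps19bp1 0.012, Rpl34 0.0026 and Rpl15 0.0074, and with upper-quartile scaling Rpl12 was 0.0027, Rps19bp1 0.0050 and Rpl15 0.00072. Rpl15 was 0.013 with quantile normalisation. Summed with their -ps rows Rpl10 was 0.046, Rpl15 0.019 and Rps6, without a change of sign, 0.057. Rps27 was 0.14 when summed with Rps27rt, a choice made after seeing the data. When single mice were left out the ranges were -0.024 to 0.066 for Rplp1, -0.058 to 0.028 for Rpl12, -0.0022 to 0.057 for Rpl18, -0.36 to 0.091 for Rps27, -0.0064 to 0.12 for Rps27l, -0.060 to 0.028 for Rpl22l1, -0.026 to 0.061 for Rpl36a, -0.055 to 0.047 for Rps19bp1, -0.066 to 0.066 for Rpl7l1, -0.051 to 0.0048 for Rpl34, -0.042 to 0.033 for Rpl15 and -0.032 to 0.023 for Rps6. The cause of these shifts was not tested. With depth unknown, no counting error can be given, and the median standard error of a core gene, 0.058, is close to the medians, so that a difference of that size in a single gene was not detectable with 5 mice a group.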

Other observations

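The 17 rows with a ribosomal protein symbol and -ps, of which 3 are annotated as protein-coding, held a summed mean of 12642 normalised counts. Of the 16 tested, 11 had a higher mean in HT. Their log2 fold changes had a median of 0.083 and a range of -0.74 to 0.65. At an unadjusted p under 0.05 in limma 1 was higher and 0 were lower, against 4.71% and 4.52% of all genes tested. HT2 was the highest mouse for 2 of these 16 rows, against 59 of the 77 core genes. Rps16-ps2 and Rps16 together came to 2621 ± 90 in HT and 2363 ± 233 in WT mice, and Rps23-ps1 and Rps23 to 3551 ± 198 and 3411 ± 192. The core genes lay on 19 chromosomes, with 14 on chromosome 7, 6 on chromosome 17 and 4 on the X chromosome.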
